A study of Mus musculus with 12 samples.

Results

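The Slc25a genes encode the mitochondrial carrier family, and 40 of them were measured in cultured mouse CD8+ T cells with and without earlier exposure to all-trans retinoic acid (ATRA). The 40 members are every gene whose symbol is Slc25a followed by a number and that has a row in both deposited count tables, which share 13625 gene symbols. This symbol rule uses no measured value, but the family was chosen with earlier results of these data known. The co-culture table also holds no gene with fewer than 10 counts in all. The T cells came from the spleen of OT-I mice, whose transgenic T cell receptor recognises a chicken ovalbumin peptide. They were expanded with antibodies against CD3e and CD28 and with IL-2, either with 5 ng/mL ATRA (ATRA groups) or with the same volume of its solvent DMSO (CTRL groups), and were kept in culture for 5 days after expansion. Cells of all 4 groups were then grown for 72 h at 1% oxygen together with GL261, a mouse glioma line made to express ovalbumin, with no additive in that step. The groups sorted at this point are called CTRL and ATRA after co-culture. The other two, CTRL and ATRA after restimulation, received antibody against CD3e for a further 24 h before the sort of live CD45.2+ cells. Each group holds 3 libraries, 12 in all. The study thus models exhaustion, the loss of T cell function under lasting antigen contact, in a dish with 1 receptor specificity and 1 tumour line, and no library of T cells without tumour contact was analysed here.

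Mitochondrial carriers are small proteins of the inner mitochondrial membrane, with a few members on the outer membrane or on peroxisomes. They exchange nucleotides, phosphate, carboxylates, amino acids, cofactors and metal ions between the cytosol and the mitochondrial matrix. Activated T cells depend on this traffic, because the malate-aspartate shuttle, the export of citrate and one-carbon metabolism all pass through such carriers. ATRA acts through retinoic acid receptors, which are ligand-bound transcription factors.

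Total counts were 23558244 to 26111497 per library after co-culture and 16288111 to 20115836 after restimulation. All 8 T cell markers of the list used here (Cd3e, Cd3d, Cd3g, Cd8a, Cd8b1, Cd2, Thy1 and Lck) were detected, and their summed level was at least 1501 CPM (counts scaled to the library total with edgeR's TMM factors) in every library. Marker sums for other cell types also differed between the groups, and several of them came mostly from single genes. The summed level of 12 markers chosen for GL261-like cells, of which 7 are in the co-culture table, after co-culture was 124 to 162 CPM (CTRL) and 72.2 to 88.3 CPM (ATRA). There Axl (means 106 and 46.5 CPM) and Igfbp7 (29.7 and 0.504 CPM) were lower with ATRA, while Loxl2 was higher (3.63 and 32.0 CPM). Nes, Cspg4, Sparc and Cald1 had means at or below 0.300 CPM in both groups. After restimulation the sum was 88.3 to 98.6 and 80.7 to 87.6 CPM, Gfap was at 0 in all 6 libraries, and most of the sum came from Axl. Markers of monocytes and macrophages had sums of 12.3 to 13.4 CPM (CTRL) and 19.9 to 24.2 CPM (ATRA) after co-culture, and of 11.6 to 17.0 and 23.1 to 24.1 CPM after restimulation, where Csf1r was at 0. Most of these sums came from Cd68 (means 11.4 and 20.4 CPM, then 12.7 and 22.4 CPM). The sums for B cells were 1.01 to 1.72 and 3.59 to 6.82 CPM, then 0.786 to 2.58 and 8.01 to 8.90 CPM. Dendritic cell markers summed to 10.7 to 15.3 and 4.12 to 7.55 CPM after co-culture, and to 19.3 to 53.6 and 70.3 to 71.5 CPM after restimulation, nearly all of it from Itgax. NK cell markers gave 32.4 to 42.2 and 9.67 to 11.4 CPM, then 12.8 to 27.0 and 20.8 to 25.8 CPM. Most of that came from Eomes (means 27.1 and 9.28 CPM, then 14.3 and 21.4 CPM). Markers of CD4 T cells gave 39.9 to 45.3 and 73.4 to 76.3 CPM, then 18.2 to 23.5 and 22.2 to 25.1 CPM. Nearly all of that came from Zbtb7b (means 41.3 and 73.9 CPM after co-culture), while Cd4 itself was at 0.433 and 1.00 CPM there. Erythroid markers stayed at or below 1.05 CPM in every library. The part of these cells in the results below was not tested, and in bulk RNA fewer cells of a type and less RNA per cell cannot be told apart. The ATRA library of replicate 3 after co-culture correlated with the others of its group at 0.948 and 0.962 across genes, against 0.990 between those. CTRL replicate 1 after co-culture correlated with the others of its group at 0.978 and 0.98, against 0.994 between those. Values without ATRA replicate 3 are given beside many of the members whose call or value after co-culture it moved. For the others, among them most members with log2 fold changes close to 0, no such value is given here.

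After co-culture 6 carriers were higher and 6 were lower in ATRA than in CTRL cells, of 39 tested (edgeR's quasi-likelihood test, Benjamini-Hochberg adjusted p under 0.05, as everywhere below). That is 30.8% of the tested members, beside 33.6% of all 12111 genes tested (percent called), so the family did not stand out from the background. Over all genes 18.1% were higher and 15.5% lower. Values written as higher by an amount are log2 fold changes, and where values stand against each other, CTRL libraries come first and replicates are in order. The higher ones were Slc25a23, Slc25a24, Slc25a28, Slc25a36, Slc25a37 and Slc25a45, and the lower ones Slc25a13, Slc25a14, Slc25a16, Slc25a17, Slc25a35 and Slc25a42. The median log2 fold change was -0.09 over the tested members and 0.01 over all genes. These counts come from a fit that does not use the pairing of CTRL and ATRA libraries by the labels' batch field. With the replicate number as a block, which uses that pairing, 3 were higher and 3 lower. Leaving out single libraries gave 1 to 6 higher and 2 to 11 lower calls. The fewest remained without a CTRL library or without ATRA replicate 2, with 3 and 3 without CTRL replicate 1, 2 and 2 without CTRL replicate 2, 1 and 2 without CTRL replicate 3, and 2 and 2 without ATRA replicate 2. The 11 lower calls came without ATRA replicate 3. In 22 of 39 members the 3 CTRL and 3 ATRA libraries did not overlap, 8 of them higher in ATRA and 14 lower. Over all genes 57.0% did not overlap in either direction, and their split by direction was not counted. The remaining member, Slc25a43, had 3 to 17 counts per library and did not pass the filter on low counts.

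After restimulation 13 carriers were higher and 16 lower in ATRA than in CTRL cells, of all 40, which is 72.5% beside 62.6% of all 12783 genes tested. Over all genes 31.8% were higher and 30.8% lower. The median log2 fold change was -0.17 over the members and 0.02 over all genes. Leaving out single libraries gave 10 to 12 higher and 13 to 16 lower calls. In 29 of 40 members CTRL and ATRA libraries did not overlap, 12 higher and 17 lower, beside 68.8% of all genes in either direction. The ATRA comparisons of the states use separate libraries. Of the 39 members tested in both, 10 were called in both, 2 only after co-culture, 19 only after restimulation and 8 in neither. Among the 11369 genes tested in both, 22.5% were called in both. The shares of these genes called only after co-culture, only after restimulation or in neither were not counted. Calls over all genes were also more frequent after restimulation (62.6%) than after co-culture (33.6%), so the count of 19 does not set the carriers apart. Of the 10, Slc25a13, Slc25a17, Slc25a35 and Slc25a42 were lower and Slc25a24 and Slc25a36 higher in both states, while Slc25a14, Slc25a23, Slc25a28 and Slc25a45 went in opposite directions. That is 6 in the same and 4 in opposite directions, beside 11.0% and 11.5% of the 11369 genes tested in both. Nothing in the labels ties the libraries to separate mice or cultures, and p-values therefore cover only the variation among the libraries themselves.

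**Figure D1:**
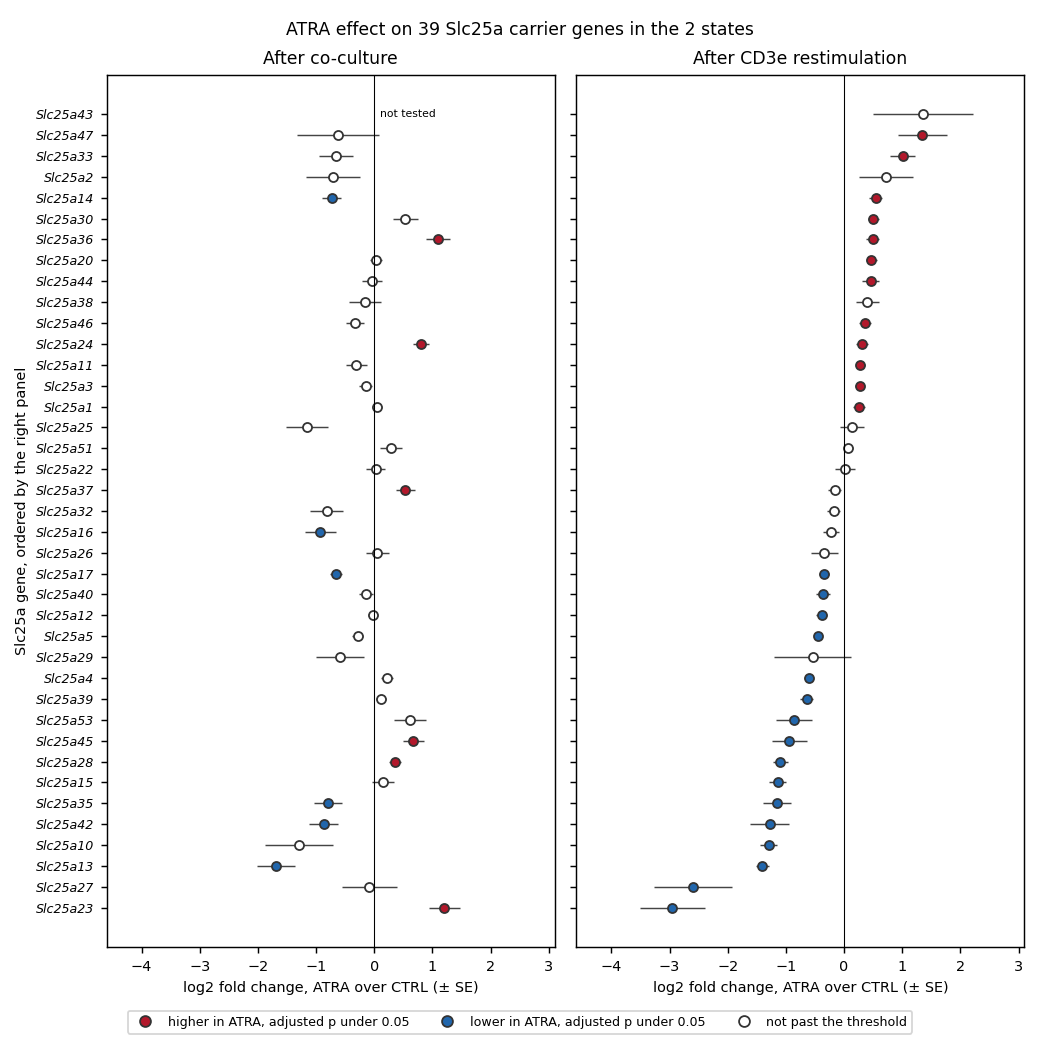
Log2 fold change of 39 of the 40 Slc25a members, ATRA against CTRL, after co-culture and after restimulation, with bars of 1 standard error from the edgeR fit on 3 libraries a group. Slc25a13 lies far to the left in both states (-1.69 and -1.40), while Slc25a23 lies to the right after co-culture (1.20) and to the left after restimulation (-2.95).

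The RefSeq promoters of 3 members are printed because these genes show 3 of the patterns of called change: Slc25a13 lower with ATRA in both states, Slc25a36 higher in both, and Slc25a28 higher after co-culture and lower after restimulation. Each sequence runs 5′ to 3′ on the gene's strand, from 250 bases before to 50 bases after the annotated start, in build GRCm38.p6, which is not the build of the counts. Capitals mark the core letters of hypoxia response elements, ACGTG and GCGTG, on either strand, chosen because all groups were kept at 1% oxygen. The run CACGTG, the E-box, holds ACGTG on both strands and counts as 2 matches. The retinoic acid receptor half-site AGGTCA was searched on both strands and is in none of the 3 windows.
Slc25a13, chr6:6217124-6217423, minus strand: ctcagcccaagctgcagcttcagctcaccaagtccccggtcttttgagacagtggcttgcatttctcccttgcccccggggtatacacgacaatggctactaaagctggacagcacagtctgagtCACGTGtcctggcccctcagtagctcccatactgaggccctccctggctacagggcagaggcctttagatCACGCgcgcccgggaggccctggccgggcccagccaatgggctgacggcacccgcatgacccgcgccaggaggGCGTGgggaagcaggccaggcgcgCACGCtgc
Slc25a36, chr9:97110992-97111291, minus strand: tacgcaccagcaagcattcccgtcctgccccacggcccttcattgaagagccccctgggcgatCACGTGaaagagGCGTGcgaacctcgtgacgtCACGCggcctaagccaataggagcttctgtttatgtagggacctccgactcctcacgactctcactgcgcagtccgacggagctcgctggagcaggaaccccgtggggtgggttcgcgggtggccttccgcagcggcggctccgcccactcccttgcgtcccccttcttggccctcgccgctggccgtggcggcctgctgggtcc
Slc25a28, chr19:43674832-43675131, minus strand: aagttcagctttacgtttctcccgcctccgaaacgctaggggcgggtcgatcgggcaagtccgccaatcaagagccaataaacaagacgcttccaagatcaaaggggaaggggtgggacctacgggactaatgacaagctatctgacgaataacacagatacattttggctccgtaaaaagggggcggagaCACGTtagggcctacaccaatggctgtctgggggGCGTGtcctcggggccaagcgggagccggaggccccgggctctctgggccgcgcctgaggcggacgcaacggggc
The windows hold 5, 4 and 2 matches to the hypoxia cores. Of the 40 members, 30 matched a RefSeq promoter, and 19 of these 30 genes held at least 1 core in a promoter. Over all 32851 promoters of the same length, 43.8% held a core, and a gene can have several promoters, so these 2 figures differ in unit. Counted by promoter, ACGTG was in 11 of the 39 member promoters and in 19.6% of all promoters. GCGTG was in 23 of the 39 and in 32.4% of all. Windows of 1 gene can overlap, and no test was run. AGGTCA was in 3 of the 39 member promoters and in 16.3% of all promoters. The E-box was in 7 of the 39 member promoters, from 6 of the 30 genes, and in 7.15% of all promoters. A match describes the letters and does not show binding.

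The adenine nucleotide translocases bring ADP into the matrix and export ATP. Slc25a5, the main translocase of dividing cells, stood at 747, 686 and 686 CPM in CTRL cells and at 602, 572 and 563 CPM in ATRA cells after co-culture. The groups did not overlap, but the log2 fold change of -0.29 (SE 0.09) missed the threshold at adjusted p = 0.0544. That p was 0.00807 with DESeq2 and 0.034 without ATRA replicate 3. After restimulation the libraries were at 696, 729 and 722 CPM in CTRL and 516, 526 and 530 CPM in ATRA cells. All ATRA libraries were below all CTRL libraries, with a log2 fold change of -0.45 (SE 0.05, adjusted p = 1.61e-05). Slc25a4, the translocase of heart and muscle, was at 178, 150 and 147 CPM in CTRL and 184, 173 and 197 CPM in ATRA cells after co-culture, and these groups overlapped. Its log2 fold change was 0.22 (SE 0.11, adjusted p = 0.159). In restimulated cells it was at 144, 160 and 151 CPM in CTRL and at 101, 102 and 94.9 CPM in ATRA cells. There Slc25a4 fell by 0.61 on the log2 scale (SE 0.07, adjusted p = 1.09e-05), and the groups lay far apart.

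Slc25a3 carries phosphate into the matrix for ATP synthesis. Its libraries after co-culture were at 354, 327 and 331 CPM in CTRL and 284, 288 and 342 CPM in ATRA cells, where only ATRA replicate 3 reached the CTRL range. The log2 fold change was -0.15 (SE 0.11, adjusted p = 0.308), and -0.24 without ATRA replicate 3 (adjusted p = 0.0287). After restimulation Slc25a3 was at 309, 321 and 374 CPM in CTRL and at 386, 407 and 419 CPM in ATRA cells. The groups did not overlap, and the log2 fold change was 0.27 (SE 0.08, adjusted p = 0.00851).

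The calcium-regulated ATP-Mg/phosphate carriers Slc25a23, Slc25a24 and Slc25a25 adjust the nucleotide pool of the matrix. Slc25a24 was at 35.7, 29.7 and 27.6 CPM in CTRL and at 46.8, 56.1 and 59.4 CPM in ATRA cells after co-culture. It was higher in every ATRA library, by 0.80 (SE 0.15, adjusted p = 0.00921), a call that held in every alternative fit run. After restimulation the values were 48.0, 46.9 and 58.4 CPM against 58.2, 67.9 and 63.7 CPM, and the groups overlapped slightly. That log2 fold change of 0.31 (SE 0.11, adjusted p = 0.0259) was no longer called without CTRL replicate 1 (0.0642) or 2 (0.0936) or without ATRA replicate 2 (0.108) or 3 (0.0673). Slc25a23 is a low-count member, at 1.88, 2.09 and 1.91 CPM in CTRL and 5.73, 4.54 and 3.28 CPM in ATRA cells after co-culture. It was higher there by 1.20 (SE 0.27, adjusted p = 0.0176), and by 1.39 without ATRA replicate 3. The call was lost without CTRL replicate 2 (0.0661) or 3 (0.0754) or ATRA replicate 2 (0.0595). After restimulation Slc25a23 stood at 2.69, 2.69 and 2.58 CPM in CTRL and at 0.504, 0.471 and 0.0502 CPM in ATRA cells. The ATRA libraries were close to the detection limit, and the log2 fold change was -2.95 (SE 0.56, adjusted p = 0.000638). Slc25a25 was at 8.20, 8.53 and 7.53 CPM against 4.68, 4.46 and 1.73 CPM after co-culture, with no overlap. Its log2 fold change of -1.16 (SE 0.37) had adjusted p = 0.051 (0.0105 with DESeq2), and -0.83 without ATRA replicate 3 had adjusted p = 0.00667. Its restimulated libraries were at 7.24, 8.07 and 6.29 against 7.95, 9.16 and 6.63 CPM, with overlap and a log2 fold change of 0.14 (SE 0.20, adjusted p = 0.578).

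The carriers Slc25a14, Slc25a27 and Slc25a30 resemble the uncoupling proteins, and their substrates are less well settled. Slc25a14 was at 16.3, 19.8 and 15.9 CPM in CTRL and 12.1, 9.30 and 9.88 CPM in ATRA cells after co-culture, lower in every ATRA library. The log2 fold change was -0.73 (SE 0.17, adjusted p = 0.0179). Blocking by replicate ended the call (adjusted p = 0.0503), as did leaving out CTRL replicate 2 (0.0764) or 3 (0.0575) or ATRA replicate 2 (0.0697). After restimulation Slc25a14 was at 19.5, 17.7 and 19.5 CPM in CTRL and at 28.4, 27.7 and 26.7 CPM in ATRA cells, now higher in every ATRA library, by 0.54 (SE 0.11, adjusted p = 0.000836). Slc25a30 was at 28.3, 29.8 and 29.3 CPM against 31.9, 37.2 and 57.5 CPM after co-culture, with no overlap but a wide ATRA spread. Its log2 fold change there was 0.53 (SE 0.22, adjusted p = 0.1). Without ATRA replicate 3 it was 0.24 (adjusted p = 0.0889), and without ATRA replicate 1 it was 0.70 (0.0425). After restimulation Slc25a30 was at 36.8, 35.4 and 35.2 against 49.4, 53.1 and 49.9 CPM, and higher by 0.51 (SE 0.09, adjusted p = 0.000462). Slc25a27 lay between 0.906 and 2.77 CPM in the co-culture libraries, with a log2 fold change of -0.09 (adjusted p = 0.898). With restimulation it was at 1.57, 0.611 and 1.08 CPM in CTRL and at 0.168, 0.0523 and 0.301 CPM in ATRA cells, and it fell by 2.59 on the log2 scale (SE 0.67, adjusted p = 0.00493) from few counts. Without ATRA replicate 3 the value was -3.24.

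The malate-aspartate shuttle moves reducing equivalents from the cytosol into mitochondria. It uses the aspartate-glutamate carriers Slc25a12 (aralar) and Slc25a13 (citrin) and the oxoglutarate-malate carrier Slc25a11. Slc25a13 was at 46.6, 42.4 and 43.7 CPM in CTRL and at 18.4, 15.6 and 7.08 CPM in ATRA cells after co-culture. Every ATRA library was far below the lowest CTRL library. The log2 fold change was -1.69 (SE 0.33, adjusted p = 0.0112), and -1.38 without ATRA replicate 3. After restimulation the values were 45.4, 45.4 and 39.4 CPM in CTRL and 16.2, 17.3 and 15.7 CPM in ATRA cells. The change of -1.40 (SE 0.11, adjusted p = 3.29e-07) had the smallest p of the members in that comparison, and both calls held in every alternative fit run. Slc25a12 was at 81.2, 77.3 and 82.8 CPM in CTRL and 82.8, 77.9 and 76.7 CPM in ATRA cells after co-culture, and these groups overlapped (log2 fold change -0.02, SE 0.09, adjusted p = 0.85). After restimulation Slc25a12 was at 87.8, 93.5 and 109 against 76.7, 74.3 and 71.5 CPM, lower in every ATRA library, with a log2 fold change of -0.39 (SE 0.09, adjusted p = 0.00261). Slc25a11 was at 63.6, 62.1 and 65.6 CPM in CTRL and 61.9, 54.6 and 38.3 CPM in ATRA cells after co-culture, a log2 fold change of -0.31 (SE 0.18, adjusted p = 0.214), which was -0.13 without ATRA replicate 3 and -0.46 without ATRA replicate 1. In restimulated cells it was at 77.4, 66.1 and 77.1 against 88.9, 89.9 and 89.5 CPM. All ATRA libraries were then the higher ones, with a log2 fold change of 0.28 (SE 0.08, adjusted p = 0.00993). On the TPM scale (transcript abundance corrected for length and scaled to the library total) the changes of Slc25a12 and Slc25a11 were not called, at adjusted p = 0.0903 and 0.0779 with limma.

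Slc25a1 exports citrate, which feeds acetyl-CoA and lipid synthesis in the cytosol. It was at 49.5, 49.0 and 49.0 CPM in CTRL and 51.0, 52.6 and 48.6 CPM in ATRA cells after co-culture, with overlap and a log2 fold change of 0.05 (SE 0.09, adjusted p = 0.713). After restimulation Slc25a1 was at 26.3, 29.0 and 27.6 CPM against 32.9, 35.6 and 30.6 CPM. The ATRA libraries were higher by 0.26 (SE 0.11, adjusted p = 0.0494), but the call ended in 9 of 13 alternative fits, among them DESeq2 (adjusted p = 0.0953), the replicate block (0.0753) and every fit without 1 library except that without ATRA replicate 3 (0.0585 to 0.193 in those 5 fits). Slc25a10 exchanges malate and succinate for phosphate. Its libraries were at 8.48, 13.4 and 14.8 CPM in CTRL and 7.06, 6.52 and 1.25 CPM in ATRA cells after co-culture, with no overlap. Its log2 fold change was -1.30 (SE 0.58, adjusted p = 0.124), and -0.85 without ATRA replicate 3 (adjusted p = 0.0302). Its restimulated libraries were at 21.0, 21.5 and 18.9 against 8.45, 7.22 and 9.29 CPM, lower in every ATRA library, with a log2 fold change of -1.30 (SE 0.15, adjusted p = 1.03e-05). In GENCODE's mouse annotation 11.3% of the exon bases of Slc25a10 overlap the opposite-strand gene Gm11788, and the strand setting of the counting is not given in the sources used here.

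Among amino acid and acyl carriers, Slc25a15, the ornithine carrier of the urea cycle, was at 10.1, 12.9 and 13.4 CPM in CTRL and at 15.8, 13.5 and 10.9 CPM in ATRA cells after co-culture. The groups overlapped, and the log2 fold change was 0.15 (SE 0.19, adjusted p = 0.573; 0.28 without ATRA replicate 3). After restimulation Slc25a15 was at 16.3, 18.2 and 18.9 CPM against 8.06, 7.85 and 8.28 CPM, with every ATRA library far below CTRL and a log2 fold change of -1.14 (SE 0.14, adjusted p = 2.31e-05). Slc25a20 brings acylcarnitines into the matrix for fatty acid oxidation. It lay at 41.4, 41.7 and 39.9 CPM in CTRL and 40.4, 45.7 and 39.9 CPM in ATRA cells after co-culture (log2 fold change 0.03, SE 0.10, adjusted p = 0.806). With restimulation it was at 41.6, 48.3 and 48.5 against 59.6, 67.3 and 64.6 CPM, higher in every ATRA library by 0.47 (SE 0.10, adjusted p = 0.00124). Slc25a44 carries branched-chain amino acids. Its co-culture libraries spanned 6.91 to 9.01 CPM, with a log2 fold change of -0.04 (adjusted p = 0.887). After restimulation they were at 9.49, 11.7 and 12.4 CPM in CTRL and 14.9, 15.6 and 15.6 CPM in ATRA cells, higher by 0.46 (SE 0.15, adjusted p = 0.0189). That call ended without CTRL replicate 1 (0.0561) and without ATRA replicate 2 (0.0573) or 3 (0.0521), and on the TPM scale (limma, 0.0657). The glutamate carrier Slc25a22 lay between 8.76 and 13.1 CPM in all 12 libraries and was called in neither state (log2 fold changes 0.03 and 0.02, adjusted p = 0.904 and 0.938). The basic amino acid carriers Slc25a2 and Slc25a29 stayed at or below 2.20 and 1.10 CPM and were called in neither state either (adjusted p = 0.259 and 0.196, and 0.292 and 0.498). The value of Slc25a29 after co-culture was -0.59, and -0.34 without ATRA replicate 3.

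The mitoferrins Slc25a37 and Slc25a28 bring iron into mitochondria for heme and iron-sulfur clusters. Slc25a28 was at 21.2, 20.1 and 21.8 CPM in CTRL and at 26.0, 26.7 and 28.4 CPM in ATRA cells after co-culture. It was higher in every ATRA library, by 0.36 (SE 0.10, adjusted p = 0.0378). The call ended with the replicate block (0.101) and when CTRL replicate 1, 2 or 3 or ATRA replicate 1 or 2 was left out (0.0606 to 0.153). After restimulation Slc25a28 was at 23.6, 24.9 and 21.5 CPM against 11.7, 9.94 and 11.2 CPM. It was then lower in every ATRA library, with a log2 fold change of -1.09 (SE 0.13, adjusted p = 1.58e-05). Slc25a37 was at 30.9, 31.0 and 32.2 CPM in CTRL and 36.7, 43.0 and 56.8 CPM in ATRA cells after co-culture, with no overlap and a log2 fold change of 0.54 (SE 0.17, adjusted p = 0.0494). Without ATRA replicate 3 the value was 0.34 (adjusted p = 0.0292). The call ended with the replicate block (0.0664), with RLE scaling (0.0511), with no filter (0.0517) and without CTRL replicate 1 (0.11), 2 (0.146) or 3 (0.132) or ATRA replicate 2 (0.0993). After restimulation the values were 29.0, 24.4 and 24.9 against 23.4, 23.0 and 23.8 CPM, with a log2 fold change of -0.16 (SE 0.11, adjusted p = 0.242). Slc25a38, a glycine carrier needed for heme synthesis in red cell precursors, spanned 6.31 to 11.5 CPM after co-culture and 6.74 to 12.2 CPM after restimulation. It was called in neither state (log2 fold changes -0.16 and 0.40, adjusted p = 0.66 and 0.0974). The first value was -0.50 without ATRA replicate 3, still not called, and the second was called without ATRA replicate 2 (0.55, 0.0425).

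**Figure D2:**
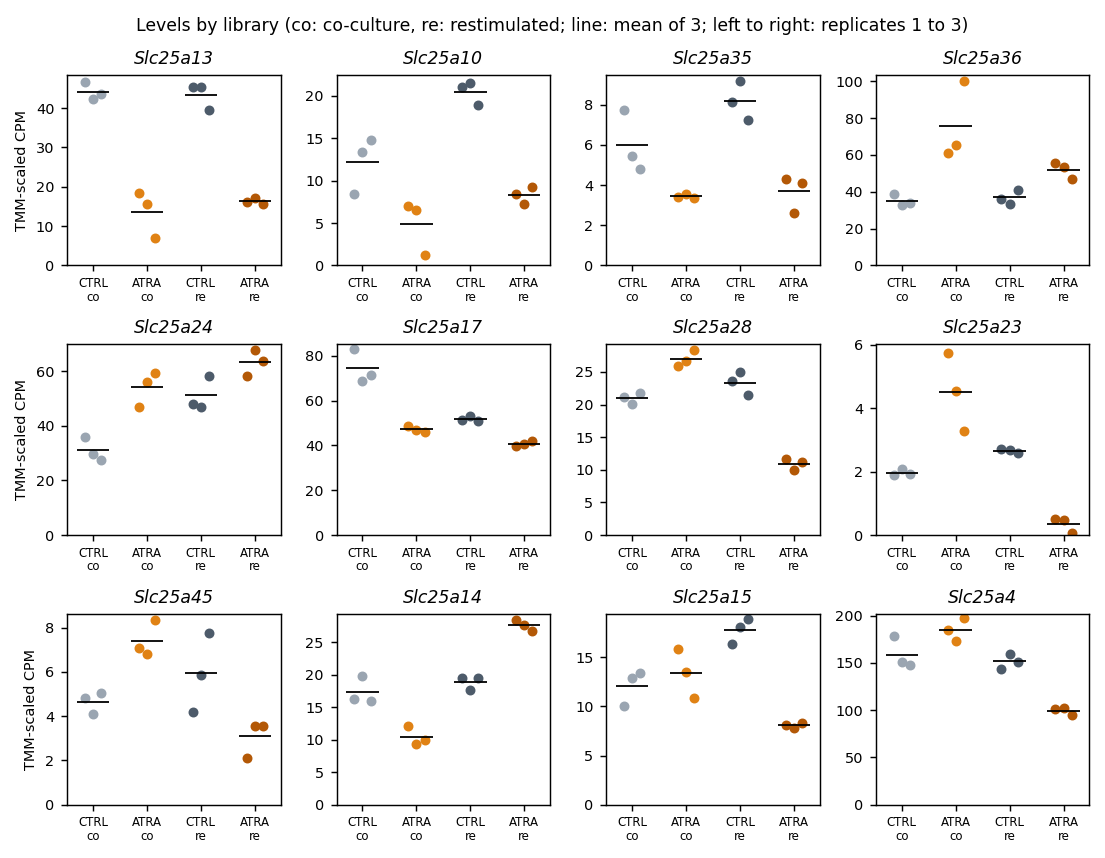
CPM of selected Slc25a members in each of the 12 libraries, by group, with a line at the mean of 3 libraries; CPM was scaled within each table. Slc25a13 falls from 42.4 to 46.6 CPM (CTRL) to 7.08 to 18.4 CPM (ATRA) after co-culture, and Slc25a28 moves up with ATRA after co-culture and down after restimulation.

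Glutathione, the main thiol antioxidant, enters mitochondria through Slc25a39 and its relative Slc25a40. Slc25a39 was at 60.7, 57.5 and 58.5 CPM in CTRL and 66.1, 65.8 and 59.5 CPM in ATRA cells after co-culture (log2 fold change 0.12, SE 0.09, adjusted p = 0.356). In restimulated cells it was at 53.8, 68.1 and 70.3 against 41.8, 40.1 and 41.6 CPM. All ATRA libraries were lower, with a log2 fold change of -0.64 (SE 0.11, adjusted p = 0.00031). Slc25a40 was at 32.7, 29.2 and 27.1 against 28.8, 24.6 and 27.0 CPM after co-culture (log2 fold change -0.15, adjusted p = 0.37). After restimulation Slc25a40 was at 38.7, 34.1 and 44.8 against 28.4, 32.8 and 30.4 CPM, with a log2 fold change of -0.36 (SE 0.12, adjusted p = 0.0195). That call ended without CTRL replicate 3 (0.0677) or ATRA replicate 1 (0.0876) or 3 (0.0615). On the log2(TPM + 0.5) scale the change of Slc25a40 was -0.55 with limma.

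Slc25a36 and Slc25a33 carry pyrimidine nucleotides, which mitochondria need for their own DNA and RNA. Slc25a36 was at 38.6, 33.1 and 33.8 CPM in CTRL and at 60.8, 65.4 and 100 CPM in ATRA cells after co-culture. It was higher in every ATRA library, by 1.10 (SE 0.21, adjusted p = 0.00993), and by 0.84 without ATRA replicate 3. In the alternative fits Slc25a36 missed the threshold only without CTRL replicate 3 (0.0501). Its restimulated libraries were at 36.2, 33.5 and 41.1 against 55.7, 53.6 and 46.8 CPM, again with no overlap, and higher by 0.49 (SE 0.11, adjusted p = 0.00203). Slc25a33 was at 10.5, 11.2 and 10.8 against 8.93, 7.57 and 4.10 CPM after co-culture, with every ATRA library the lower one. Its log2 fold change was -0.66 (SE 0.29, adjusted p = 0.115), and -0.40 without ATRA replicate 3 (adjusted p = 0.059). After restimulation Slc25a33 was at 3.59, 5.50 and 5.43 against 8.73, 9.89 and 10.6 CPM. The ATRA libraries were then higher, by 1.01 (SE 0.22, adjusted p = 0.00143). Of the exon bases of Slc25a33, 14.9% overlap the opposite-strand gene Gm13068.

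Several carriers supply cofactors. Slc25a17 is a peroxisomal carrier of coenzyme A and related nucleotides. It was at 83.1, 68.8 and 71.3 CPM in CTRL and 48.5, 46.9 and 45.9 CPM in ATRA cells after co-culture. It was lower in every ATRA library, with a log2 fold change of -0.66 (SE 0.11, adjusted p = 0.00638), and this call held in every alternative fit run. With restimulation it was at 51.4, 52.9 and 51.1 against 39.6, 40.7 and 42.1 CPM, with a log2 fold change of -0.35 (SE 0.09, adjusted p = 0.00504). Slc25a42 carries coenzyme A into the matrix, and Slc25a16 has been linked to the same cofactor. Slc25a42 was at 3.63, 3.55 and 3.93 against 2.57, 1.77 and 1.73 CPM after co-culture, with no overlap and a log2 fold change of -0.87 (SE 0.25, adjusted p = 0.038). The call ended with the replicate block (0.0826), with upper-quartile scaling (0.0501) and without CTRL replicate 1 (0.0705), 2 (0.105) or 3 (0.133) or ATRA replicate 2 (0.124). After restimulation Slc25a42 was at 2.92, 3.18 and 2.85 against 0.896, 1.26 and 1.51 CPM, with a log2 fold change of -1.28 (SE 0.34, adjusted p = 0.00586), and -0.81 on the log2(TPM + 0.5) scale (limma, adjusted p = 0.0266). Slc25a16 was at 21.6, 22.1 and 23.8 against 14.5, 13.7 and 7.29 CPM after co-culture, with all ATRA libraries lower. Its log2 fold change was -0.93 (SE 0.26, adjusted p = 0.035), and -0.67 without ATRA replicate 3. The call ended with the replicate block (0.0518) and without CTRL replicate 1 (0.0775), 2 (0.0984) or 3 (0.115) or ATRA replicate 2 (0.0672). After restimulation it spanned 22.5 to 33.9 CPM, with overlap (log2 fold change -0.23, SE 0.14, adjusted p = 0.16).

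Slc25a32 has been described as a carrier of folate and of FAD. It was at 20.7, 27.1 and 25.6 against 17.7, 15.6 and 8.42 CPM after co-culture, with no overlap (log2 fold change -0.82, SE 0.28, adjusted p = 0.0628; -0.56 and 0.0197 without ATRA replicate 3). It was also called with DESeq2 (0.0215) and without ATRA replicate 1 (0.0431). In restimulated cells it was at 41.0, 37.6 and 42.9 against 36.6, 32.4 and 38.3 CPM, with overlap and no call (log2 fold change -0.18, SE 0.11, adjusted p = 0.162). Slc25a26, which carries S-adenosylmethionine, lay at 5.31 to 7.41 CPM after co-culture and 5.42 to 9.68 CPM after restimulation and was not called (log2 fold changes 0.05 and -0.34, adjusted p = 0.862 and 0.218). Slc25a51, which carries NAD, was at 65.4 to 77.5 CPM (CTRL) and 69.7 to 113 CPM (ATRA) after co-culture and at 76.3 to 87.1 and 84.6 to 86.1 CPM after restimulation. It was not called in either state (log2 fold changes 0.29 and 0.07, adjusted p = 0.265 and 0.457), and without ATRA replicate 3 the first value was 0.056.

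The last group holds members with a disputed or little known substrate. Slc25a46, an outer membrane protein tied to mitochondrial shape, was at 98.8, 101 and 90.4 against 88.9, 80.2 and 61.3 CPM after co-culture (log2 fold change -0.33, SE 0.15, adjusted p = 0.125; -0.20 without ATRA replicate 3). After restimulation Slc25a46 was at 146, 106 and 125 against 161, 159 and 164 CPM, higher in every ATRA library by 0.36 (SE 0.10, adjusted p = 0.00932), though not on the TPM scale (limma, adjusted p = 0.0987). Slc25a35 was at 7.74, 5.46 and 4.78 against 3.39, 3.58 and 3.37 CPM after co-culture, all ATRA libraries lower, with a log2 fold change of -0.80 (SE 0.24, adjusted p = 0.0413). That call ended with the replicate block (0.0856), with upper-quartile scaling (0.0553) and when CTRL replicate 1, 2 or 3 or ATRA replicate 1 or 2 was left out (0.0675 to 0.107). Without CTRL replicate 1 the log2 fold change was -0.57. Its restimulated libraries were at 8.14, 9.17 and 7.26 against 4.31, 2.62 and 4.12 CPM, with a log2 fold change of -1.15 (SE 0.24, adjusted p = 0.00123). Of its exon bases 22.3% overlap Rangrf on the opposite strand, and without strand, reads from these bases cannot be assigned to either gene. Slc25a45 was at 4.81, 4.11 and 5.03 against 7.10, 6.81 and 8.33 CPM after co-culture, all ATRA libraries higher, by 0.67 (SE 0.18, adjusted p = 0.0312). The call ended with the replicate block (0.0719) and when CTRL replicate 1, 2 or 3 or ATRA replicate 1 or 2 was left out (0.0565 to 0.125). After restimulation Slc25a45 was at 4.21, 5.87 and 7.74 against 2.13, 3.56 and 3.56 CPM, with a log2 fold change of -0.94 (SE 0.30, adjusted p = 0.0156), and not called without CTRL replicate 3 (0.0635) or ATRA replicate 1 (0.0676). On the TPM scale its change was -0.30 (limma, adjusted p = 0.611).

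Slc25a53 was at 2.07, 3.74 and 3.53 against 4.48, 4.37 and 5.48 CPM after co-culture, with no overlap and no call (log2 fold change 0.62, SE 0.28, adjusted p = 0.128; 0.40 without CTRL replicate 1). With restimulation it was at 3.87, 4.16 and 4.14 against 1.74, 3.19 and 1.76 CPM, with a log2 fold change of -0.86 (SE 0.31, adjusted p = 0.0301). That call ended with DESeq2 (0.0504), on the TPM scale (limma, 0.0949) and without CTRL replicate 2 (0.0702) or 3 (0.0503) or ATRA replicate 1 or 3 (0.106 each). Slc25a47, known from liver, stayed at or below 0.673 CPM after co-culture (log2 fold change -0.62, adjusted p = 0.513). After restimulation Slc25a47 was at 0.842, 0.489 and 1.13 against 2.02, 2.41 and 1.91 CPM, higher by 1.35 (SE 0.42, adjusted p = 0.0147), and not called without CTRL replicate 2 (0.0536) or ATRA replicate 2 (0.0585). Slc25a43 had at most 18 counts in any library and was not called after restimulation (log2 fold change 1.35, SE 0.86, adjusted p = 0.195).

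Whether ATRA acted differently in the states was tested directly, as the difference between its log2 fold change after restimulation and after co-culture, in 1 fit over all 12 libraries. A shift common to the CTRL and ATRA libraries of a state cancels in this difference. An ATRA effect that varies with the batch set or the table does not cancel, so neither can be told apart from the state. The difference was above 0 for 7 members and below 0 for 11 of 40 tested, 45% beside 49.2% of all 12364 genes (23.6% above and 25.5% below 0). The median difference was -0.00 over the members and -0.07 over all genes. Above 0 were Slc25a33 (1.67), Slc25a25 (1.29), Slc25a14 (1.28), Slc25a46 (0.69), Slc25a11 (0.59), Slc25a20 (0.43) and Slc25a3 (0.41). Below 0 were Slc25a23 (-4.16), Slc25a27 (-2.51), Slc25a45 (-1.62), Slc25a53 (-1.48), Slc25a28 (-1.46), Slc25a15 (-1.29), Slc25a4 (-0.84), Slc25a39 (-0.76), Slc25a37 (-0.70), Slc25a24 (-0.50) and Slc25a12 (-0.36). The smallest p belonged to Slc25a28, with an SE of 0.16 and adjusted p = 1.53e-05. Of the carriers called the same way in both states, Slc25a24 is among those below 0. The difference was 0.29 (SE 0.34, adjusted p = 0.508) for Slc25a13, 0.31 (SE 0.13, adjusted p = 0.0588) for Slc25a17, -0.36 (SE 0.34, adjusted p = 0.402) for Slc25a35, -0.62 (SE 0.25, adjusted p = 0.0578) for Slc25a36 and -0.41 (SE 0.37, adjusted p = 0.379) for Slc25a42. For Slc25a10 it was 0.00 (SE 0.56, adjusted p = 0.998), and the wide SE leaves room for a large difference. Without ATRA replicate 2 after restimulation the calls above 0 numbered 4, and without both CTRL replicate 1 and ATRA replicate 3 after co-culture they numbered 12.

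**Figure D3:**
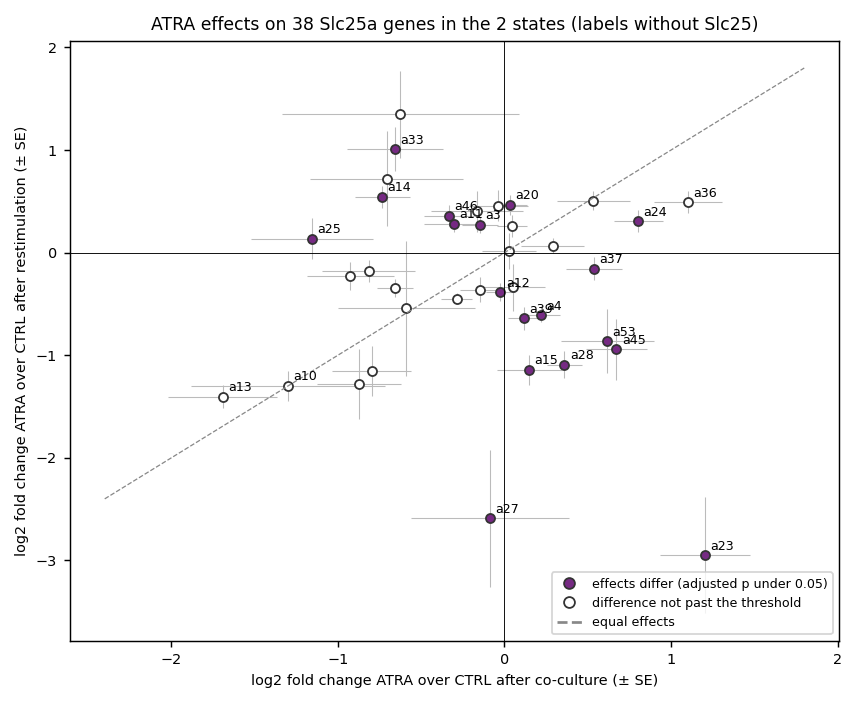
ATRA effect (log2 fold change) on the Slc25a members shown, after co-culture on the x axis and after restimulation on the y axis, with points marked by the test of the difference between the effects. Slc25a28, Slc25a23 and Slc25a45 lie right of and below 0 (higher, then lower), and Slc25a14 lies left of and above 0.

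Restimulated and co-culture libraries were set side by side in the same fit, but the state, the table and the batch set cannot be told apart in these values. They share libraries with the ATRA comparisons. In CTRL cells 3 members were higher and 3 lower after restimulation, 15% of 40 beside 32.5% of all genes. Slc25a1, the citrate carrier, was lower, with a log2 fold change of -0.93 (SE 0.09, adjusted p = 1.22e-05), as were Slc25a17 with -0.62 (SE 0.09, adjusted p = 0.000261) and Slc25a33 with -1.26 (SE 0.26, adjusted p = 0.00291). Slc25a24 was higher by 0.62 (SE 0.14, adjusted p = 0.00429). The other calls, for Slc25a32 (0.63, adjusted p = 0.0357) and Slc25a15 (0.46, adjusted p = 0.0451), ended when any 1 of the 6 CTRL libraries was left out (0.056 to 0.117 for Slc25a32 and 0.0584 to 0.142 for Slc25a15). They also ended without ATRA replicate 1 or 3 after restimulation (0.0527 and 0.0505 for Slc25a32, 0.0633 and 0.0618 for Slc25a15), and that of Slc25a15 without ATRA replicate 2 of either state (0.064 and 0.0637), with upper-quartile scaling (0.0556) and with no filter (0.0512). The number of higher calls ran from 1 to 6 over the fits without 1 library. In ATRA cells 12 members were higher and 14 lower, 65% beside 61.3% of all genes (29.8% higher and 31.5% lower). Among the lower ones were Slc25a28 (-1.40, SE 0.11, adjusted p = 9.22e-07), Slc25a4 (-1.0, SE 0.10, adjusted p = 3.12e-06), Slc25a1 (-0.72, SE 0.09, adjusted p = 2.36e-05), Slc25a23 (-3.82, SE 0.48, adjusted p = 2.54e-05) and Slc25a37 (-1.06, SE 0.15, adjusted p = 6.59e-05). Among the higher ones were Slc25a14 (1.30, SE 0.13, adjusted p = 5.85e-06), Slc25a46 (0.97, SE 0.14, adjusted p = 6.39e-05), Slc25a32 (1.26, SE 0.21, adjusted p = 0.000261), Slc25a44 (0.82, SE 0.15, adjusted p = 0.000645) and Slc25a20 (0.50, SE 0.10, adjusted p = 0.000667).

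Levels can be compared between genes only per length, which the authors' TPM table allows for the restimulated cells. The translocase Slc25a5 led with 897 ± 24.6 TPM (SD, n = 3) in CTRL and 635 ± 9.90 TPM in ATRA cells. The phosphate carrier Slc25a3 followed with 453 ± 23.5 and 519 ± 16.3 TPM. Together they made up 53.8% to 54.9% of the summed TPM of the 40 members in the CTRL columns and 50.2% to 51.4% in the ATRA columns. Slc25a4 was at 131 ± 2.78 and 85.7 ± 3.92 TPM, next in order in CTRL cells and among the next members in ATRA cells. By their level in CTRL cells, the next members were Slc25a39 (92.7 ± 12.5 and 66.8 ± 3.71 TPM), Slc25a51 (84.6 ± 7.29 and 89.4 ± 1.34 TPM), Slc25a11 (76.8 ± 10.7 and 91.7 ± 2.79 TPM), Slc25a36 (73.7 ± 4.31 and 95.7 ± 11.0 TPM) and Slc25a46 (64.1 ± 12.2 and 77.7 ± 1.85 TPM). In CTRL cells these 5 neighbours lie within about 1 SD of the next in order, so their order is not settled. In ATRA cells the order differed, and Slc25a30 (80.2 ± 6.04 TPM) stood above Slc25a46 and Slc25a39. The summed TPM of the members was 2454 to 2516 in CTRL and 2241 to 2317 in ATRA columns, and 3 to 5 members per column were under 1 TPM. The summed CPM of the 40 members was likewise lower in ATRA cells, at 2188 to 2344 against 2046 to 2094 CPM after restimulation and at 2101 to 2223 against 1950 to 2053 CPM after co-culture, with no overlap in either state. By group means, the fall of Slc25a5 alone was larger than that of the sum after restimulation and made up most of it after co-culture. The sums therefore do not describe the other carriers.

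**Figure D4:**
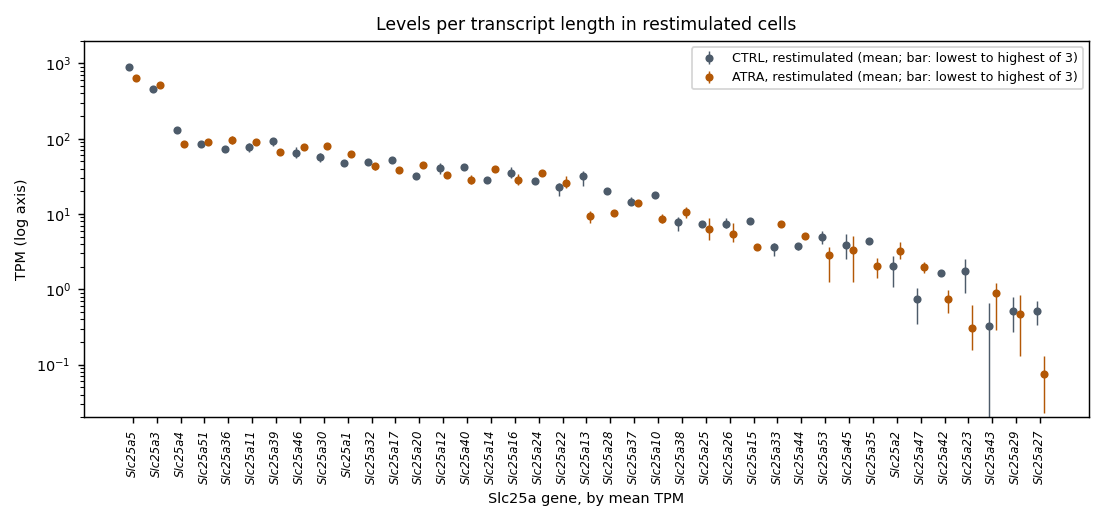
TPM of 39 Slc25a members in restimulated cells on a log axis, ordered by mean; points are means of 3 columns a group and bars run from the lowest to the highest column. Slc25a5 (897 TPM in CTRL, 635 in ATRA) and Slc25a3 stand far above the rest.

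The balance between closely related carriers differed between groups. These pairs were chosen after their values were seen, and the shares are of the counts of both genes, not corrected for length, so they are a description. Slc25a12 made up 64.5% ± 0.96 (SD, n = 3) of the counts of the aspartate-glutamate carriers Slc25a12 and Slc25a13 in CTRL cells after co-culture and 85.6% ± 5.24 in ATRA cells. After restimulation its share was 68.9% ± 4.02 in CTRL and 81.9% ± 0.70 in ATRA cells, so in both states CTRL and ATRA libraries did not overlap. The share of Slc25a4 in the translocase pair with Slc25a5 was 18.3% ± 0.84 in CTRL and 24.2% ± 1.48 in ATRA cells after co-culture, and 17.5% ± 0.44 and 15.9% ± 0.63 after restimulation. It was thus above CTRL in 1 state and below it in the other. Slc25a28 held 40.1% ± 0.71 of the mitoferrin counts in CTRL and 37.7% ± 4.10 in ATRA cells after co-culture, with overlap, and 47.3% ± 2.94 and 31.8% ± 1.59 after restimulation, with none. Slc25a33 held 23.7% ± 2.06 of the counts of the pyrimidine nucleotide pair with Slc25a36 in CTRL and 9.04% ± 4.58 in ATRA cells after co-culture. After restimulation the values were 11.6% ± 2.54 and 15.9% ± 2.47, and the libraries overlapped.

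**Figure D5:**
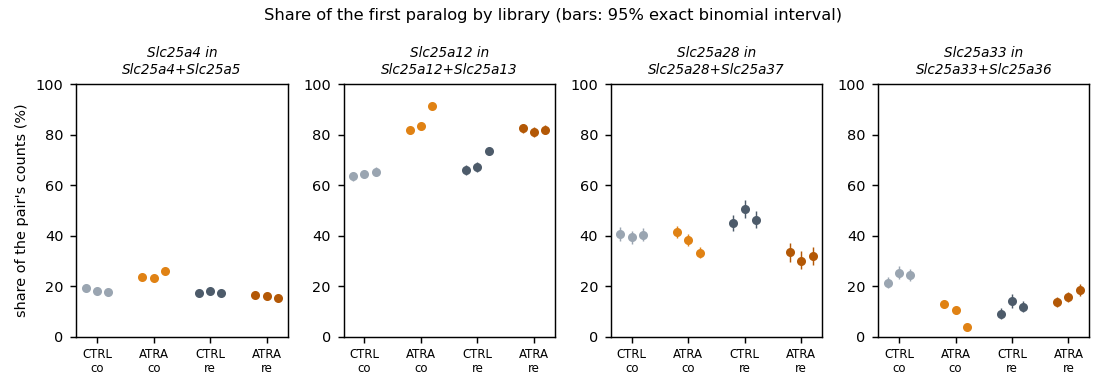
Share (%) of the first gene in the counts of 4 pairs of related carriers in each of the 12 libraries, by group, with bars for the 95% exact binomial interval, which covers counting error only. The Slc25a12 share is higher with ATRA in both states, and the Slc25a4 share is higher with ATRA after co-culture (23.2% to 25.9%) and lower after restimulation (15.2% to 16.3%).

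Family members under other symbols were counted from a list. Of 4 tested after co-culture 0 were higher and 2 lower, and of 3 after restimulation 1 was higher and 2 lower, beside 33.6% and 62.6% of all genes called in either direction. Ucp2, an uncoupling protein abundant in lymphocytes, was at 691, 398 and 441 CPM in CTRL and 381, 395 and 447 CPM in ATRA cells after co-culture, with overlap (log2 fold change -0.32, SE 0.22, adjusted p = 0.274). CTRL replicate 1 lay far above the other libraries, and without it the value was -0.037 (adjusted p = 0.818). In restimulated cells it was at 292, 330 and 367 against 670, 660 and 685 CPM, higher in every ATRA library by 1.03 (SE 0.08, adjusted p = 2.8e-07), and the difference between the states was 1.34 (SE 0.24, adjusted p = 0.000739) with CTRL replicate 1 included. Ucp3 was called lower after co-culture, from 0.711 to 1.41 CPM in CTRL to at most 0.126 CPM in ATRA cells. The outer membrane relative Mtch2, an insertase for membrane proteins, had log2 fold changes of -0.34 and -0.16 (adjusted p = 0.0229 and 0.0428). Its calls ended with the replicate block (0.085 and 0.0965), after co-culture without CTRL replicate 2 or 3 or ATRA replicate 2 (0.0926 to 0.0967), and after restimulation with upper-quartile scaling (-0.09, 0.223), with no filter (0.058), on the TPM scale (limma, 0.103) and without CTRL replicate 2 or any ATRA library (0.0912 to 0.134). Mtch1 was lower after restimulation (-0.74, SE 0.08, adjusted p = 6.84e-06).

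Carriers reach the inner membrane through the translocases of the outer membrane, the small Timm chaperones and the Timm22 complex. Of 13 genes of this route, 0 were higher and 1 (Timm10, -1.0, SE 0.29, adjusted p = 0.0391) was lower after co-culture, with a list median of -0.28 beside 0.01 over all genes. That is 7.69% called, beside 33.6% of all genes. Blocking by replicate ended the call of Timm10 (0.0801), as did leaving out CTRL replicate 2 (0.116) or 3 (0.137) or ATRA replicate 2 (0.0852). After restimulation 2 were higher and 5 lower, 53.8% beside 62.6% of all genes, with a median of -0.10 beside 0.02. The lower ones included Timm8a1 (-0.59, SE 0.09, adjusted p = 0.000139) and Agk (-0.49, adjusted p = 0.00538).

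Of 24 other transporters of mitochondrial membranes, 2 were higher and 3 lower after co-culture (20.8% beside 33.6% of all genes, median -0.09), and 7 were higher and 10 lower after restimulation (70.8% beside 62.6%, median -0.29). Mcu, the pore of the calcium uniporter, was at 29.9, 27.4 and 25.8 against 18.6, 21.4 and 18.8 CPM after co-culture, with a log2 fold change of -0.50 (SE 0.12, adjusted p = 0.0214). That call ended with the replicate block (0.0595) and without CTRL replicate 1, 2 or 3 or ATRA replicate 1 (0.052 to 0.0764). After restimulation Mcu was at 16.9, 17.8 and 16.1 against 44.2, 43.5 and 48.1 CPM, higher by 1.42 (SE 0.10, adjusted p = 2e-07). Vdac1, the main channel of the outer membrane, went the other way. It was at 202, 183 and 180 against 251, 280 and 396 CPM after co-culture (0.72, SE 0.18, adjusted p = 0.0248) and at 216, 231 and 204 against 109, 116 and 111 CPM after restimulation (-0.95, SE 0.07, adjusted p = 1.91e-07). The first of these calls ended with the replicate block (0.0501) and without CTRL replicate 1, 2 or 3 or ATRA replicate 2 (0.052 to 0.0964). Mpc1, a subunit of the pyruvate carrier, and Letm1, a cation exchanger, were lower in both states (Mpc1 -0.81 and -0.44, adjusted p = 0.00816 and 0.015; Letm1 -0.77 and -0.37, adjusted p = 0.00494 and 0.00597). The restimulated call of Mpc1 ended without CTRL replicate 1 (-0.30, 0.0599) or ATRA replicate 1 (0.0529) or 2 (0.0522), and on the TPM scale neither was called (limma, 0.051 for Mpc1 and 0.149 for Letm1).

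Of 33 tested enzymes that use what the carriers move, 5 were higher and 6 lower after co-culture and 8 were higher and 12 lower after restimulation, with a median of -0.12 in both states. These counts are 33.3% and 60.6%, close to the 33.6% and 62.6% of all genes. Got2, the matrix aminotransferase of the malate-aspartate shuttle, was not called after co-culture (0.01, adjusted p = 0.964) and was lower after restimulation (-0.73, SE 0.06, adjusted p = 8.87e-07). Gpd2, of the glycerol phosphate shuttle, was lower after co-culture (-1.0, SE 0.16, adjusted p = 0.00566) and higher after restimulation (0.60, SE 0.06, adjusted p = 5.97e-06). Cpt1a, which makes the acylcarnitines that Slc25a20 carries, was higher and then lower (0.72, SE 0.09, adjusted p = 0.00289, then -0.28, adjusted p = 0.00224, and 0.053 on the TPM scale with limma). Bckdha, of branched-chain amino acid breakdown, was also higher and then lower (1.30, SE 0.24, adjusted p = 0.00921, then -1.54, SE 0.18, adjusted p = 9.56e-06). The one-carbon enzymes Mthfd2 and Mthfd1l moved oppositely. Mthfd2 was lower after co-culture (-0.74, SE 0.17, adjusted p = 0.02) and higher after restimulation (0.99, SE 0.07, adjusted p = 2.15e-07), and Mthfd1l was higher (0.77, adjusted p = 0.0168) and then lower (-0.88, SE 0.06, adjusted p = 1.14e-07). After co-culture the call of Mthfd2 ended without CTRL replicate 2 or 3 or ATRA replicate 2 (0.0505 to 0.0815) and that of Mthfd1l without any 1 of the 3 CTRL libraries (0.053 to 0.0668).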

How the data were processed

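Bulk RNA sequencing of sorted cells gave 12 libraries, 3 in each of 4 groups, placed by the sample titles. The authors deposited whole-number counts per gene symbol in 1 table for each state, and TPM for the restimulated libraries. Build mm39 was used together with DESeq2 1.42.1, Salmon 1.10.3, STAR 2.7.11b and cutadapt 5.0, per the submitters' processing notes. The kit was stranded, per the labels' protocols. What each tool did, the annotation and the strand setting were not given in the sources used here. TPM columns name the treatment but no library, so they served as replicates without a number. Among restimulated rows, 32 repeat a symbol, and the row with the largest total was kept. The co-culture table has no row with a sum below 10.

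Counts were tested with edgeR 4.0.16 in R 4.3.3 (TMM, filterByExpr by group, robust quasi-likelihood fit) on all genes of each table, with Benjamini-Hochberg adjustment over all genes tested. SE is the coefficient divided by the root of its F. The difference between the states' ATRA effects and the restimulation changes came from 1 fit on 12 libraries and the symbols in both tables. CPM uses TMM-scaled totals within a table. At the lowest total, a count of 3 is the detection limit used, for counting error only. Alternatives were DESeq2 1.42.0, RLE and upper-quartile scaling, no filter, a replicate block, each library left out, both libraries that stand apart left out (CTRL replicate 1 and ATRA replicate 3 after co-culture), and limma 3.58.1 on log2(TPM + 0.5) and log2(TPM + 0.1). The fits were also run on simulated independent counts. That simulation had no batch pairing and no library that stands apart, so it cannot show how the fits handle these.

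The labels have a batch field, which gives the same value to same-numbered CTRL and ATRA libraries of a state, and this pairs them. Their deviations from the group means correlated at 0.13, -0.06 and 0.07 after co-culture and at -0.03, -0.10 and 0.04 after restimulation. Libraries of a group differed beyond sampling noise (chi-square per degree of freedom at least 3.86).

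Every member was counted. Members were named by a rule that takes up to 8 called members per direction with the smallest p in each ATRA comparison and for the difference, up to 5 for each restimulation change, the 8 highest in TPM and a fixed set. Values of the remaining members were added, except 1 member that is counted but not reported here. From each gene list up to 4 genes with the smallest p in each ATRA comparison could be named, and not all of these are given. The members, lists and rule were chosen with earlier results of these data known, and list genes are described by counts and medians without a test. Exon overlaps come from GENCODE M21 and promoters from RefSeq, both on GRCm38, not the build of the counts, so no other coordinates are printed.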

Additional observations from a re-analysis of the deposited data

Results flagged for a closer look

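For 18 members the ATRA effect differed between the states by the test of the difference itself (edgeR interaction term over 12 libraries, given as log2 fold change after restimulation minus that after co-culture). The positive differences were 1.67 for Slc25a33, 1.29 for Slc25a25, 1.28 for Slc25a14, 0.69 for Slc25a46, 0.59 for Slc25a11, 0.43 for Slc25a20 and 0.41 for Slc25a3. The negative differences were -4.16 for Slc25a23, -2.51 for Slc25a27, -1.62 for Slc25a45, -1.48 for Slc25a53, -1.46 for Slc25a28, -1.29 for Slc25a15, -0.84 for Slc25a4, -0.76 for Slc25a39, -0.70 for Slc25a37, -0.50 for Slc25a24 and -0.36 for Slc25a12. The share called, 45% of 40, lies beside 49.2% of all genes tested. Each state has its own table and batch set, and an ATRA effect that varies with these cannot be told apart from one that varies with the state.

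Leaving out 1 library ended some of these calls. Slc25a12 lost its call without CTRL replicate 2 or 3 or ATRA replicate 1 after co-culture, or CTRL replicate 3 or any ATRA library after restimulation (adjusted p 0.0502 to 0.0818). Slc25a24 lost it without CTRL replicate 2 or 3 or ATRA replicate 2 or 3 after co-culture, or CTRL replicate 1 or 3 or any ATRA library after restimulation (0.0521 to 0.116). Slc25a3 lost it without CTRL replicate 1 or ATRA replicate 1 or 2 after co-culture, or CTRL replicate 1 or 2 or ATRA replicate 2 or 3 after restimulation (0.0567 to 0.0744). Slc25a27 lost it without CTRL replicate 2 or ATRA replicate 1 after co-culture, or CTRL replicate 1 or ATRA replicate 1 or 2 after restimulation (0.0527 to 0.0668), with values from -1.85 without ATRA replicate 1 after co-culture to -3.17 without ATRA replicate 3 after restimulation. Slc25a11 lost it without CTRL replicate 3 after co-culture (0.0527) or CTRL replicate 2 after restimulation (0.0613). Slc25a20 (0.0525) and Slc25a25 (0.0539) each lost it without ATRA replicate 2 after restimulation. The replicate block ended the calls of Slc25a12 (0.0892) and Slc25a24 (0.0981). The other 11 differences kept their call in every fit run.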

How the results depend on the processing

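Over the alternatives run, 2116 values of single genes kept their direction and side of the threshold, 215 lost the call, 35 gained it and 25 changed sign. All sign changes were in genes without a call in that comparison, and their cause was not tested.
After co-culture upper-quartile scaling gave 0.040 for Slc25a12, 0.030 for Slc25a44 and 0.017 for Mtch1. DESeq2 gave -0.0074 and the fit with no filter -0.0039 for Got2. Without both libraries that stand apart the values were 0.012 for Slc25a12, -0.014 for Slc25a22, 0.17 for Slc25a27 and -0.018 for Got2. Over the fits without 1 library the values ran from -0.030 to 0.067 for Slc25a20, -0.058 to 0.13 for Slc25a22, -0.065 to 0.17 for Slc25a26, -0.76 to 0.19 for Slc25a27, -0.11 to 0.066 for Slc25a44 and -0.028 to 0.035 for Got2. After restimulation they ran from -0.12 to 0.16 for Slc25a22, and limma on log2(TPM + 0.5) and log2(TPM + 0.1) gave -0.25 and -0.27 for Slc25a25.
With the replicate block, which uses the pairing of CTRL and ATRA libraries by the labels' batch field, 3 members were higher and 3 lower after co-culture (6 and 6 without it). Beside the losses given in the report, the block also ended the difference calls of Slc25a12 (adjusted p = 0.0892) and Slc25a24 (0.0981), gave Slc25a25 a call after co-culture (0.0484), and ended the call of no member but Slc25a1 after restimulation.
Leaving out single libraries gave 1 to 6 higher and 2 to 11 lower members after co-culture, 4 to 9 differences above 0, and 1 to 6 higher members after restimulation of CTRL cells. Without both libraries that stand apart, 13 members were lower after co-culture, 12 differences were above 0, and 5 members were higher after restimulation of CTRL cells. After co-culture Slc25a3, Slc25a5, Slc25a10, Slc25a25, Slc25a32, Slc25a33 and Slc25a38 then gained a call as lower, and Slc25a4, Slc25a30 and Slc25a39 as higher. With 2 libraries a group left there, the spread rests on fewer libraries.
Upper-quartile scaling moved the median of all genes to 0.08 in both states, from 0.01 and 0.02, and RLE scaling left it within 0.01.
Low counts limit Slc25a2, Slc25a23, Slc25a27, Slc25a29, Slc25a43 and Slc25a47, for which a few reads set the fold change. TPM tests were possible for 36 of the 40 members, and called 10 higher and 11 lower.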

Other observations

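The restimulated table lists 7 further Slc25a genes with no row in the co-culture table: Slc25a18, Slc25a21, Slc25a31, Slc25a34, Slc25a41, Slc25a48 and Slc25a54. They had at most 6 counts in any library, the highest being Slc25a41 with 0, 0 and 1 in CTRL and 0, 0 and 6 in ATRA cells. These include carriers known from brain, testis and muscle. The row Slc25a5-ps, a pseudogene of the translocase Slc25a5, held 0, 0 and 0 counts in CTRL and 0, 4 and 1 in ATRA cells, beside 516 to 729 CPM for Slc25a5 itself.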
